A study of Mus musculus with 4 samples.

Results

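Osteopontin, encoded by Spp1, and 8 integrin subunits that the blastocyst could use to bind it or other matrix proteins were followed in mouse early blastocysts. The 9 genes were taken by their symbols (Spp1, Itga3, Itga5, Itga6, Itga7, Itgav, Itgb1, Itgb3 and Itgb5) from the 23235 symbols in the deposited tables, and each was found once in each library. Embryos were made either by nuclear transfer (SCNT, where a somatic cell's nucleus is put into an oocyte stripped of its own) or by in vitro fertilization (IVF). There were 2 libraries per group, each from 6 pooled embryos lysed 96 hours after activation or fertilization. The SCNT embryos carried nuclei of embryonic fibroblasts heterozygous for an Xist knockout, from a 129S1/SvImj mother and a CAST/EiJ father, in oocytes of B6D2F1/J females. The IVF embryos came from Xist KO oocytes on a 129S1/Svj background and wild-type CAST/EiJ sperm, so both groups had a 129 and CAST genome and an Xist knockout on the maternal side, while the cytoplasm came from different strains. The column names of the SCNT libraries also carry the word kdm4d, which names a histone demethylase gene. The labels are silent on any use of it and do not state the sex of the embryos. Xist lies on the X chromosome, so nuclei heterozygous for its knockout hold 2 X chromosomes. The IVF pools could hold both sexes, so the groups may differ in sex. Kdm4d had 0.0649 and 0.117 FPKM in SCNT, against a listed 0 and 0.0382 FPKM in IVF. Xist, the knocked-out gene, had 4.13 and 3.33 FPKM in SCNT, against 1.09 and 13.9 FPKM in IVF, and since the deleted part is not stated these values do not check the genotype.

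Integrins are cell-surface receptors made of an alpha and a beta chain, and the pair decides which matrix protein is bound. The alpha5 chain with beta1 binds fibronectin, alpha3, alpha6 and alpha7 with beta1 bind laminins, and alphav with beta3 or beta5 binds proteins that carry the arginine-glycine-aspartate motif, among them vitronectin and osteopontin. Osteopontin is a secreted phosphoprotein with that motif, and in the mouse embryo its gene is known as a target of the pluripotency factor Oct4 (Pou5f1). In trophectoderm, the outer layer of the blastocyst, integrins take part in attachment to the uterus and in spreading on matrix.

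Values are FPKM, fragments per kilobase of transcript scaled to the mapped total, a scale on which genes of different length can be compared. FPKM summed to between 956773 and 976790 in the SCNT libraries and to between 933167 and 985197 in the IVF libraries, and 1 FPKM was reached by 10802 to 10923 genes in a library. The files do not give the depth, so counting errors are unknown. Trophectoderm markers summed to 6806 and 4785 FPKM in SCNT and to 4904 and 4346 FPKM in IVF, and inner cell mass and epiblast markers to 553 and 589 FPKM in SCNT and to 505 and 547 FPKM in IVF, which fits the blastocyst label. Of 12 fibroblast markers, 9 stayed under 1 FPKM in every library, as did all 9 cumulus and granulosa markers and 7 of 10 oocyte markers. The fibroblast markers summed to 8.49 and 1.41 FPKM in SCNT and to 4.16 and 1.79 FPKM in IVF. Short RNA genes (microRNA and small nucleolar RNA) held 9.50% and 9.73% of summed FPKM in SCNT and 12.4% and 12.2% in IVF, so their share moved with the group. The labels do not say whether the libraries within a group had different parents or culture days. The p-values therefore rest on a spread between libraries that could be technical.

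Spp1 lies on chromosome 5. Stretches from its start and its first intron are printed because they hold the motifs that tie the gene to Oct4 and to Runx factors. The sequences are RefSeq's, for the GRCm38.p6 build, on the plus strand, whereas the submitters' notes name mm9 for the expression values. Capitals in the upstream stretch mark AACCACA, a Runx motif, and capitals in the intron stretch mark ATTTGAAATGCAAAT, known as the palindromic Oct factor recognition element, which contains the octamer ATGCAAAT.
Spp1 upstream, chr5:104434861-104435110: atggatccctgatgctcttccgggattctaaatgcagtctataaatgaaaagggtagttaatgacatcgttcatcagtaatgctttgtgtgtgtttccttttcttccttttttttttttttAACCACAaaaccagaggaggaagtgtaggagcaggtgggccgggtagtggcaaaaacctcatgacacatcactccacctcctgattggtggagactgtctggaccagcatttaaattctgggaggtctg
Spp1 first intron, chr5:104435942-104436061: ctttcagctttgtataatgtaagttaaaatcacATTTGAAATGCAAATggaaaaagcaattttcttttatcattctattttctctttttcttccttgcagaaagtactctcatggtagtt
The Oct element starts 864 bases after the first RefSeq start of Spp1 and lies in the first intron of 6 of the 7 GENCODE transcripts that have an intron. The intron stretch was cut from the window of a later RefSeq start of Spp1 and lies upstream of that start. Its full length was not placed against the introns, only the Oct element. Searched on both strands, this element occurred in 2 of 32851 RefSeq start-site windows of 300 bases (0.00609%), the shorter octamer in 1.74% and AACCACA in 5.27%. The letters of the Oct element were copied from a Spp1 window that is itself counted. Its match there was therefore fixed beforehand, and its low share is no result about Spp1. Windows were found for 6 of the 9 genes. Among these only a Spp1 window held the Oct element or the octamer, and AACCACA was found for Spp1 and Itga3. These matches describe letters in the genome and say nothing of what bound there.

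Spp1 had the highest level of the 9 genes, and its values were higher in both SCNT libraries. It had 87.0 and 97.7 FPKM in SCNT libraries 1 and 2, against 44.2 and 49.6 FPKM in IVF libraries 1 and 2. Both SCNT libraries lay above both IVF libraries, and the means were 92.4 ± 7.54 FPKM in SCNT and 46.9 ± 3.85 FPKM in IVF (SD, n = 2 libraries each), a ratio of 1.97. In bulk embryos, more cells that express a gene and more RNA per cell cannot be told apart.

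On the log2(FPKM + 1) scale, which understates the change of low genes, the Spp1 difference of SCNT minus IVF was 0.96 ± 0.18 (SE), with a 95% interval of 0.50 to 1.43. It was 0.96 between the libraries numbered 1 and again 0.96 between those numbered 2. With limma the unadjusted p was 0.00298 and the adjusted p over all 11039 tested genes was 0.317, so Spp1 did not pass the threshold of 0.05. In this comparison 14 genes passed (0.127%), 8 higher (0.0725%) and 6 lower (0.0544%) in SCNT, and 7.09% of genes had an unadjusted p under 0.05. These counts moved when any 1 library was left out. Such fits keep a single library in 1 group, so their counts are not comparable and are not given. Spp1 ranked at place 104 of 11039 by p. Leaving out any 1 library kept the Spp1 difference between 0.88 and 1.05. The direction could not turn in these fits, because the groups did not overlap.

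Among genes that reached 1 FPKM, Spp1 exceeded 87.7% and 88.1% in the SCNT libraries and 79.1% and 81.0% in the IVF libraries. The 10 markers of inner cell mass and epiblast, the cells that form the embryo proper, had a median difference of -0.01, with 5 estimates above and 5 below 0, against a median of 0.01 over all tested genes. Under the alternatives that median lay between -0.06 and 0.10. Without any 1 library 6 or 7 of the 10 estimates were above 0. Pou5f1, which encodes Oct4 and is named because of the motif above, had 120 and 154 FPKM in SCNT, against 112 and 128 FPKM in IVF. These groups overlapped, and the difference was 0.18 ± 0.21 (limma adjusted p = 0.9996). The ratio of Spp1 to Pou5f1 was 0.723 and 0.636 in SCNT, against 0.394 and 0.387 in IVF. Tdgf1, which encodes the Nodal co-receptor Cripto, came nearest to Spp1 among these markers, at 90.2 and 61.5 FPKM in SCNT and 54.7 and 39.1 FPKM in IVF. Its difference was 0.67 ± 0.28 and did not pass (limma adjusted p = 0.751). Gdf3, Esrrb and Prdm14 differed by 0.34, 0.55 and -0.26 and did not pass either.

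Primitive endoderm, the other tissue of the inner cell mass, was read from 8 markers, of which 6 were tested. Their median difference was -0.05, with 2 estimates above and 4 below 0, and lay between -0.18 and 0.21 under the alternatives. Without IVF library 1, 6 estimates were above and 0 below 0, and without SCNT library 2, 4 were above and 2 below. Gata4, a transcription factor of that lineage, had 9.77 and 9.18 FPKM in SCNT and 6.59 and 5.09 FPKM in IVF, a difference of 0.62 (limma adjusted p = 0.548). The other tested markers are named to give the whole list. Pdgfra differed by 0.30, and Gata6, Hnf4a, Dab2 and Sox17 differed by -0.25, -0.16, -0.07 and -0.04, and none passed. Macrophages are cells known for high Spp1, and 5 of 6 macrophage markers stayed under 1 FPKM in every library. Their summed FPKM was 8.31 and 10.5 in SCNT, against 5.34 and 5.998 in IVF. The untested genes Ptprc, Csf1r, Emr1, Lyz2 and Mpeg1, named to give the whole list, were all low. The pan-leukocyte gene Ptprc and the receptor genes Csf1r and Emr1 reached at most 0.0648 FPKM in any library, and Mpeg1 at most 0.0905 FPKM. Lyz2, a lysozyme gene, had 0.348 and 0.365 FPKM in SCNT, against 0.0599 FPKM in IVF library 1 and a listed 0 in IVF library 2. Both SCNT libraries were above both IVF libraries for Lyz2, Emr1 and Cd68, and below both for Csf1r. Over all tested genes the shares were 18.3% above and 15.1% below, but Lyz2, Emr1 and Csf1r were not tested, so these shares need not hold for them. Few fragments set the values of Emr1 and Csf1r, and Lyz2 was under 1 FPKM as well. Cd68, a lysosomal protein gene and the macrophage marker that was tested, had 7.90 and 10.1 FPKM in SCNT and 5.20 and 5.88 FPKM in IVF, a difference of 0.60 (limma adjusted p = 0.574). The part of these other genes in the Spp1 difference was not tested.

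The 5 tested genes whose profile over the 4 libraries was closest to that of Spp1 were Sfxn1, Kdelr3, 2200002D01Rik, Bphl and Glipr1. Likeness was the root-mean-square distance between log2 values centred on each gene's mean, and it ran from 0.04 for Sfxn1 to 0.07 for Glipr1 on the log2 scale. Sfxn1, which encodes a serine transporter of mitochondria, had 25.9 and 27.0 FPKM in SCNT and 12.3 and 13.9 FPKM in IVF. Kdelr3, a receptor that returns proteins to the endoplasmic reticulum, had 28.7 and 30.5 FPKM in SCNT and 12.7 and 15.6 FPKM in IVF. With so few libraries the match is a description, and none of the 5 passed the test over all genes.

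**Figure D1:**
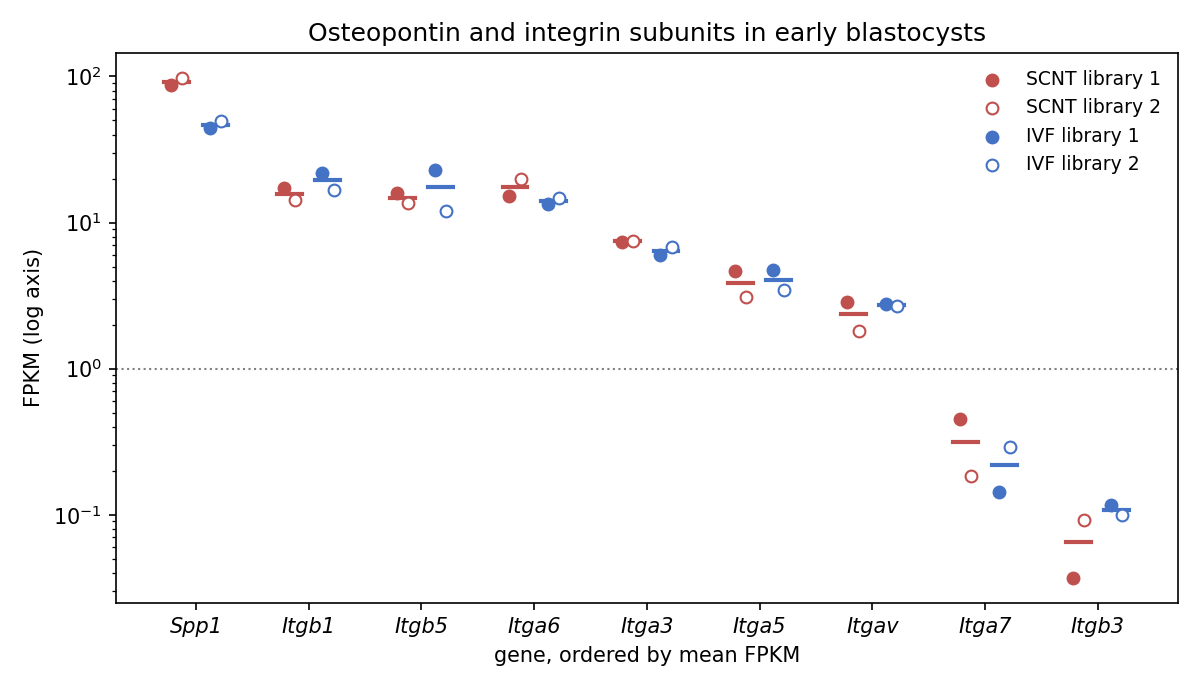
FPKM of the 9 genes on a log axis, with SCNT libraries in red left of IVF libraries in blue. Each point is a library (filled for library 1, open for library 2), each bar is the mean of 2 libraries and the dotted line marks 1 FPKM. Spp1 stands highest with its groups apart (87.0 and 97.7 FPKM in SCNT, 44.2 and 49.6 FPKM in IVF), while Itga7 and Itgb3 stay below 1 FPKM.

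Among the integrins, 6 of 8 had a mean of at least 1 FPKM over the 4 libraries and were tested, and none passed. Itgb1, Itgb5 and Itga6 followed Spp1 at mean levels of 17.6, 16.1 and 15.9 FPKM over the 4 libraries, and their libraries overlapped, so these 3 have no order. Below them came Itga3 at 6.91, Itga5 at 3.97 and Itgav at 2.54 FPKM, then Itga7 at 0.267 and Itgb3 at 0.0861 FPKM. In each of these later steps the libraries of neighbouring genes did not overlap.

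Among the 8 member integrins, Itga6 and Itga3, alpha chains of laminin receptors, were the tested ones with higher values in both SCNT libraries. Outside these 8, the collagen receptor chain Itga1 had the same pattern and is given below. Itga6, on chromosome 2, encodes the alpha chain that pairs with beta1 or beta4 on laminin, and it had 15.3 and 19.9 FPKM in SCNT, against 13.5 and 14.8 FPKM in IVF. Both SCNT libraries were above both IVF libraries, but the closest pair differed by little, and the difference was 0.29 ± 0.20 with a 95% interval of -0.23 to 0.80 (limma adjusted p = 0.933). Itga3, on chromosome 11, encodes the alpha chain of another laminin receptor and had 7.39 and 7.50 FPKM in SCNT, against 5.97 and 6.76 FPKM in IVF. Its groups did not overlap either, and the difference was 0.20 ± 0.17, with an interval of -0.24 to 0.64 (limma adjusted p = 0.986). With Spp1, 3 of the 7 tested genes had both SCNT libraries above both IVF libraries, where 18.3% of all tested genes did. None had both below, where 15.1% of all tested genes did.

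Itga5 and Itgav, alpha chains of receptors for the arginine-glycine-aspartate motif, and the beta chains Itgb1 and Itgb5 overlapped between the groups. Itga5 on chromosome 15, the fibronectin receptor's alpha chain, had 4.65 and 3.08 FPKM in SCNT, against 4.70 and 3.45 FPKM in IVF, a difference of -0.07 with an interval of -0.71 to 0.57. Itgav on chromosome 2, the alpha chain of the osteopontin and vitronectin receptors, had 2.88 and 1.82 FPKM in SCNT, against 2.78 and 2.69 FPKM in IVF, a difference of -0.18 with an interval of -0.75 to 0.40. SCNT library 2 was low for both, and the IVF libraries lay within or beside the SCNT range.

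Itgb1 on chromosome 8, the beta chain shared by most of these receptors, had 17.3 and 14.2 FPKM in SCNT, against 22.0 and 16.8 FPKM in IVF. The difference was -0.28 ± 0.22, with an interval of -0.83 to 0.27 (limma adjusted p = 0.963). Itgb5 on chromosome 16, a partner of alphav, had 16.0 and 13.5 FPKM in SCNT, against 22.9 and 12.0 FPKM in IVF. IVF library 1 was high for this gene, so that the difference was -0.49 between the libraries numbered 1 and 0.16 between those numbered 2. The direction for Itgb5 turned to 0.28 when IVF library 1 was left out. That for Itga5 turned to 0.11 without the same library and to 0.17 without SCNT library 2, which also turned Itgav to 0.054. The intervals of the 6 tested integrins all held 0. Leaving out 1 library moved the Itga6 difference between 0.11 (without SCNT library 2) and 0.47 (without SCNT library 1). It moved that of Itgb1 between -0.47 (without IVF library 2) and -0.096 (without IVF library 1).

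The 4 tested chains with lower SCNT estimates shared another feature. Itga5, Itgav, Itgb1 and Itgb5 were each higher in both libraries numbered 1 than in both libraries numbered 2, across the groups, as were 29.1% of all tested genes. For Itga5 this split is larger than that between the groups: 4.65 and 4.70 FPKM in SCNT and IVF libraries 1, against 3.08 and 3.45 FPKM in SCNT and IVF libraries 2. None of the 7 tested genes was lower in both libraries numbered 1, where 24% of all tested genes were. The labels do not say what the library number stands for.

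Itga7 and Itgb3 were barely detected. Itga7 on chromosome 10, a laminin receptor chain best known from muscle, had 0.449 and 0.183 FPKM in SCNT, against 0.143 and 0.292 FPKM in IVF, and the groups overlapped. Itgb3 on chromosome 11, the partner of alphav in the classical vitronectin receptor, had 0.0371 and 0.0924 FPKM in SCNT, against 0.116 and 0.0990 FPKM in IVF. Both SCNT libraries were below both IVF libraries, though few fragments set values this low. Neither gene reached the level for testing. In a fit without that filter the differences were 0.11 for Itga7 and -0.06 for Itgb3 (limma adjusted p = 0.944 and 0.918). Of these 3 beta chains, all possible partners of alphav, Itgb1 and Itgb5 were thus the ones above 1 FPKM.

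Summed over the 5 alpha chains, the level was 30.7 and 32.5 FPKM in SCNT, against 27.1 and 28.0 FPKM in IVF. Summed over the 3 beta chains it was 33.3 and 27.8 FPKM in SCNT, against 45.0 and 28.9 FPKM in IVF. The alpha sums did not overlap between the groups and the beta sums did, with IVF library 1 highest. Alpha over beta was 0.921 and 1.17 in SCNT and 0.602 and 0.970 in IVF, which overlapped. Itga6 made up 49.9% and 61.3% of the alpha sum in SCNT and 49.8% and 52.8% in IVF, and Itga3 made up 24.1% and 23.1% in SCNT and 22.0% and 24.2% in IVF. Laminin-binding chains thus held the larger part of alpha-chain RNA in every library. Itgb1 held 51.9% and 51.0% of the beta sum in SCNT and 48.9% and 58.2% in IVF, with almost all of the rest in Itgb5. Spp1 over the sum of the 8 integrins was 1.36 and 1.62 in SCNT and 0.613 and 0.873 in IVF, so the level of osteopontin RNA was above that of the integrin sum in both SCNT libraries and below it in both IVF libraries.

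**Figure D2:**
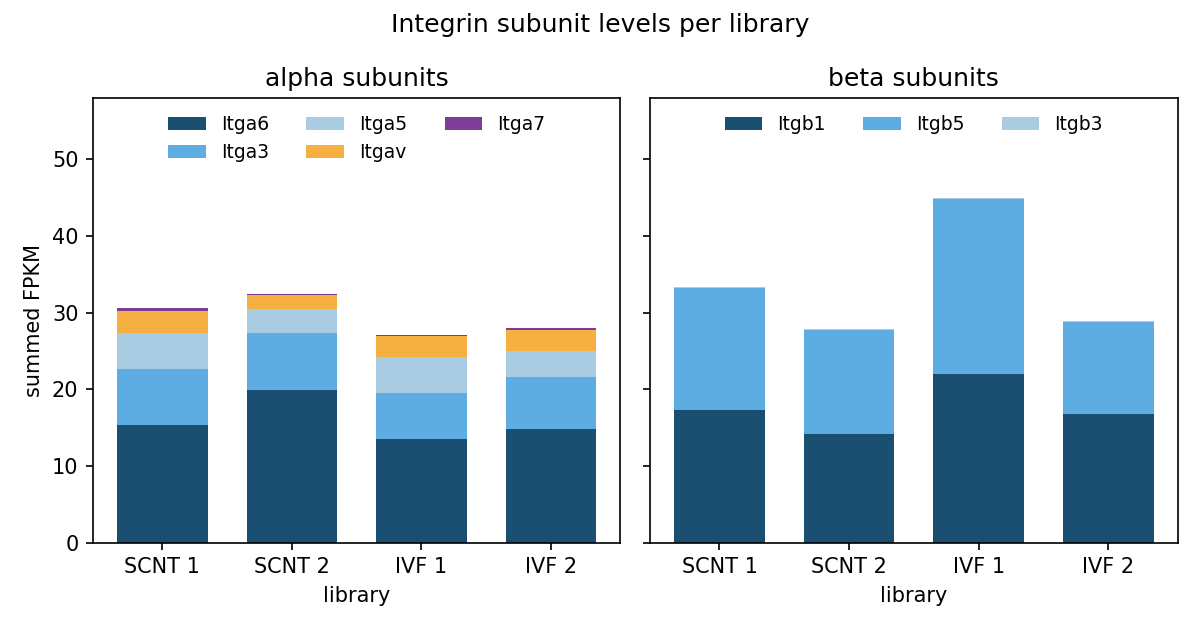
Summed FPKM of the 5 alpha chains (left panel) and the 3 beta chains (right panel) in each library, with SCNT libraries left of IVF libraries and 1 colour per gene. Itga6 is the largest alpha part in every library, and IVF library 1 has the highest beta sum at 45.0 FPKM, against 28.9 FPKM in IVF library 2.

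**Figure D3:**
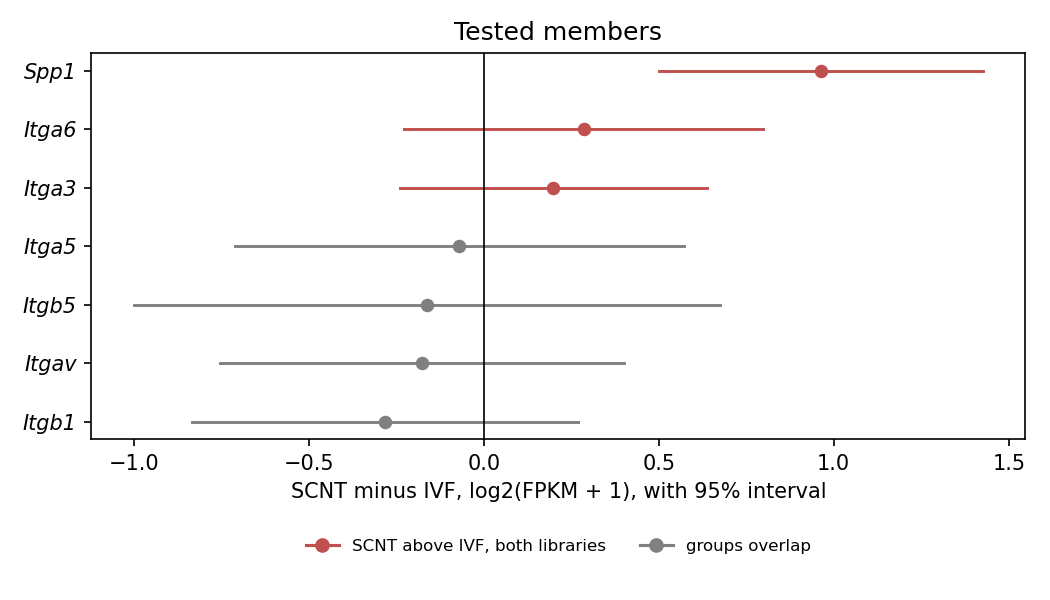
Difference of SCNT minus IVF on the log2(FPKM + 1) scale for the 7 tested genes, with 95% intervals from limma. Red marks genes with both SCNT libraries above both IVF libraries and grey marks overlapping groups. The Spp1 interval, 0.50 to 1.43, is the one that does not reach 0.

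The rest of the integrin family was little expressed. Of 19 other subunits, 16 stayed under 1 FPKM in every library and 2 were tested. Itga1, a collagen receptor chain, had 2.26 and 1.83 FPKM in SCNT, against 1.11 and 1.17 FPKM in IVF. Its groups did not overlap, and the difference of 0.50 ± 0.19 did not pass (limma adjusted p = 0.684). Itgae, known from lymphocytes of epithelia, had 1.12 and 1.79 FPKM in SCNT and 1.37 and 1.35 FPKM in IVF, a difference of 0.04.

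Most other genes of the osteopontin system were at or near 0. Cd44, a cell-surface receptor that can bind osteopontin, had 0.00864 and 0.0163 FPKM in SCNT, against 0.00893 FPKM in IVF library 1 and a listed 0 in IVF library 2. Of the 11 listed genes for osteopontin's family, receptor and processing, 8 stayed under 1 FPKM in every library, 4 of them at 0 throughout, and 2 were tested. Acp5, which encodes a phosphatase that can act on osteopontin, had 29.1 and 25.6 FPKM in SCNT, against 22.0 and 18.6 FPKM in IVF, a difference of 0.41 (limma adjusted p = 0.791). Plau, the urokinase gene, differed by -0.23 and its groups overlapped.

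Genes for other integrin ligands did not share a direction. Of 17 listed, 11 were tested and none passed, with 7 estimates above and 4 below 0 and a median of 0.04. The median turned to -0.03 without IVF library 2 and to -0.01 with the short RNA genes removed. The laminin genes Lama1, Lamc1 and Lamb1 differed by 0.69, 0.73 and 0.48, and each had both SCNT libraries above both IVF libraries (limma adjusted p = 0.461, 0.532 and 0.797). Lama5, named to give the other laminin gene of the list, differed by 0.04 with overlapping groups. Lama1, a chain of the laminin that alpha6 with beta1 binds, had 8.24 and 9.33 FPKM in SCNT, against 5.21 and 4.94 FPKM in IVF. Mfge8, a secreted ligand of alphav receptors, lay on the other side, with 36.0 and 29.8 FPKM in SCNT and 56.0 and 39.7 FPKM in IVF, a difference of -0.51 (limma adjusted p = 0.814). Fn1, the fibronectin gene, was chosen after its values were seen and differed by -0.29 with overlapping groups.

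Inside the cell, integrins are tied to actin by an adhesion complex of talins, kindlins, vinculin, parvins and their partners. Of 29 such genes 26 were tested and none passed, but 24 of the estimates were above 0 and 2 below, with a median of 0.29 against 0.01 over all tested genes. Both SCNT libraries were above both IVF libraries for 16 of the 26, and for none were both below, where the shares over all tested genes were 18.3% and 15.1%. With the short RNA genes removed and each library rescaled, 21 estimates were above and 5 below 0. Without IVF library 2, and likewise without SCNT library 1, 20 were above and 6 below.

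Parva, which encodes alpha-parvin, a partner of integrin-linked kinase, had 7.32 and 6.86 FPKM in SCNT, against 1.70 and 2.77 FPKM in IVF. The difference was 1.34 ± 0.23 (limma adjusted p = 0.278). Zyx, which encodes zyxin, a protein of adhesions under tension, had 117 and 109 FPKM in SCNT, against 63.0 and 50.5 FPKM in IVF, a difference of 0.99 ± 0.20 (limma adjusted p = 0.320). Fermt2, a kindlin that activates integrins, had 28.5 and 28.8 FPKM in SCNT, against 22.1 and 19.1 FPKM in IVF, a difference of 0.46 ± 0.17 (limma adjusted p = 0.674). Ilk and Tln1, chosen after their values were seen as the core of the link, had differences of 0.01 and -0.13 and overlapping groups. Ilk was at 121 and 118 FPKM in SCNT and at 118 and 119 FPKM in IVF.

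Membrane proteins that accompany integrins, such as tetraspanins, were the next list. Of 8 listed, 7 were tested and none passed, with 6 estimates above and 1 below 0 and a median of 0.21. The split was 4 above and 3 below without IVF library 2, and 7 above and 0 below without SCNT library 1. Cd47, a partner of alphav with beta3, had 4.37 and 4.74 FPKM in SCNT, against 1.73 and 2.99 FPKM in IVF, a difference of 0.75 (limma adjusted p = 0.574). The tetraspanin gene Cd82 differed by 0.76 (limma adjusted p = 0.696), the abundant tetraspanin gene Cd9 by 0.29 and Slc3a2, which encodes the heavy chain of amino acid transporters that binds beta1, by 0.21.

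Markers of trophectoderm also had mostly higher estimates in SCNT. Of 10, 9 estimates were above 0 and 1 below (6 and 4 without SCNT library 1), with a median of 0.45 and no gene past the threshold. Their summed FPKM was 6806 and 4785 in SCNT and 4904 and 4346 in IVF, which overlapped. Krt8 and Krt18, whose groups overlapped, made up most of these sums. For 6 of the 10 markers both SCNT libraries were above both IVF libraries, and for none were both below. Over all tested genes these shares were 18.3% and 15.1%. Elf5, a trophoblast transcription factor, had 17.9 and 9.50 FPKM in SCNT, against 3.23 and 3.88 FPKM in IVF (difference 1.63, limma adjusted p = 0.320), and Cdx2, Eomes and Krt7 differed by 0.63, 0.95 and 0.54. Their part in the adhesion gene values was not tested.

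**Figure D4:**
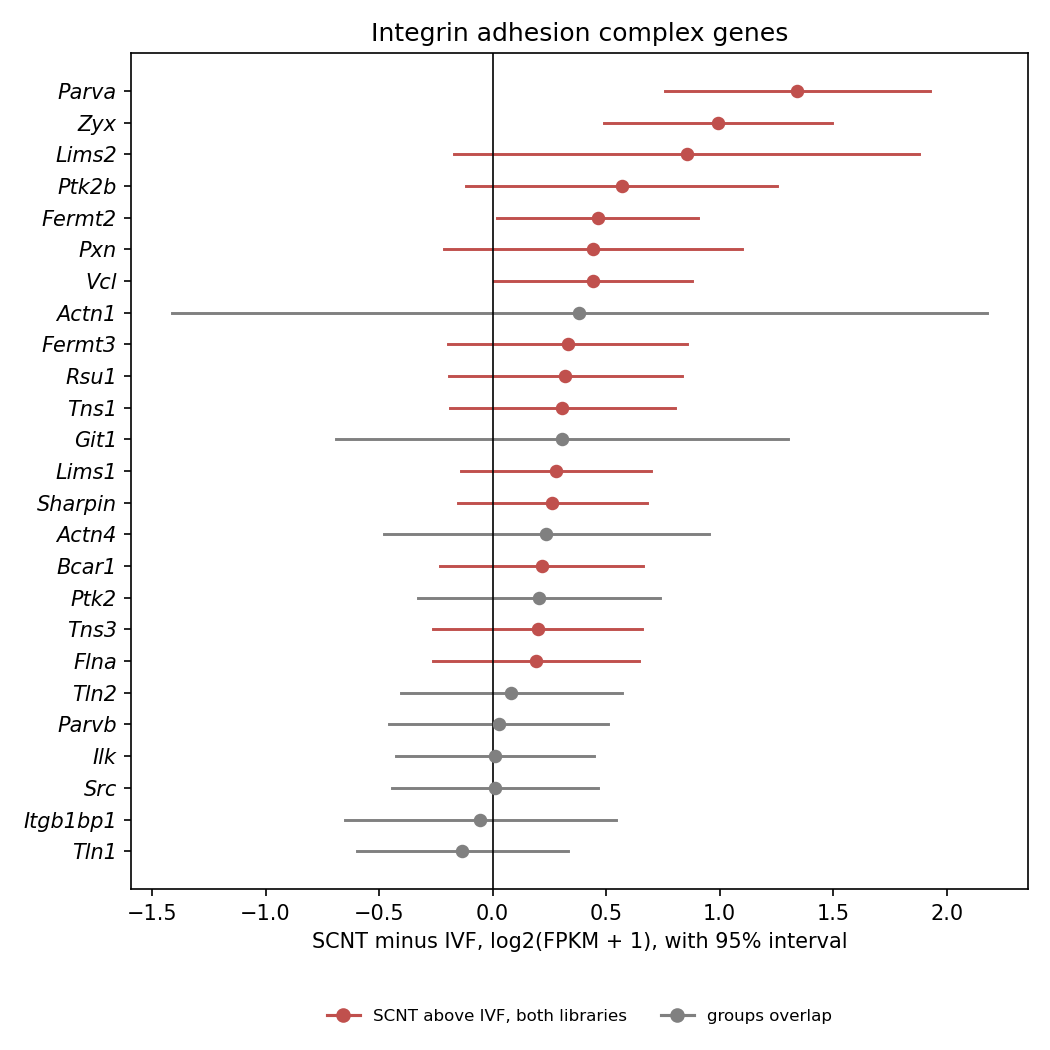
Difference of SCNT minus IVF on the log2(FPKM + 1) scale for 25 tested adhesion complex genes, with 95% intervals from limma. Red marks the 15 genes with both SCNT libraries above both IVF libraries and grey the 10 with overlapping groups. Parva at 1.34 and Zyx at 0.99 stand at the top, and Tln1 at -0.13 at the bottom.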

How the data were processed

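RNA of 6 pooled embryos per library was turned into cDNA and amplified with a low-input kit, per the labels' protocols. The authors deposited 1 value per gene symbol, read here as FPKM because the submitters' processing notes list Cufflinks 2.2.1 and the values fit that unit. The same notes list TopHat2 2.0.14, Bowtie2 2.1.0 and the mm9 build. Annotation, filters, strand and any scaling across libraries were not stated. Samples were grouped by their titles. Genes with a mean of at least 1 FPKM over the 4 libraries, 11039 in all, were tested on log2(FPKM + 1) with limma 3.58.1 (R 4.3.3), two-sided, with a trended variance prior, no covariate and Benjamini-Hochberg adjustment; the threshold was an adjusted p of 0.05. The fit was tested on simulated data with normal noise drawn separately for each library. It recovered 87 of 100 genes changed by 1 on the log2 scale and 100 of 100 changed by 2, with 11 false calls. The simulated noise was set by expression level alone, so genes of equal level had equal spread, and no low genes were changed. The simulated libraries also shared no effect of library number, so these counts may not hold for the real ones. Absolute depth is unknown. Relative depth was sought in the most frequent ratio of low values to those of SCNT library 1. It was 0.908 for SCNT library 2, 1.04 for IVF library 1 and 0.883 for IVF library 2, but 3.62%, 12.9% and 2.26% of low genes lay within 1% of it, so the first and last are uncertain.

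The 9 genes, the other lists, taken from general knowledge, and the tests were chosen with earlier results of these data known. Named genes are the 9, other integrins at 1 FPKM or more, Cd44, up to 4 genes per list with the lowest unadjusted p, and the 5 nearest to Spp1, with exceptions marked in the text. Alternatives were other pseudocounts, filters, scalings and variance priors, the replicate number as a block, and leaving out each library. For 1 adhesion complex gene the value is not reported here.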

Additional observations from a re-analysis of the deposited data

How the results depend on the processing

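Over 14 alternatives the Spp1 difference lay between 0.88 and 1.05 on the log2 scale. Where both groups kept 2 libraries, Spp1 never passed (limma adjusted p of 0.0873 to 0.463). Itga3, Itga6 and Itgb1 kept their directions, though leaving out 1 library put them between 0.12 and 0.28, 0.11 and 0.47, and -0.47 and -0.096, and no integrin passed. For Spp1, Itga3 and Itga6 the direction could not turn without 1 library, because their groups did not overlap. Changes of filter, variance prior or block leave the estimate of a tested gene as it was, so they are no check of direction. Leaving out 1 library put Itga5 between -0.31 and 0.17, Itgav between -0.41 and 0.054 and Itgb5 between -0.60 and 0.28. Itga5 and Itgb5 turned positive without IVF replicate 1 (0.11 and 0.28), and Itga5 and Itgav without SCNT replicate 2. The replicate numbers of the titles are not known to pair the libraries, though deviations of same-numbered libraries from their group means correlated across genes (r = 0.31, 11039 genes). With the replicate block, the Spp1 difference stayed at 0.96 (limma adjusted p = 0.0873), and 12 genes were called higher and 8 lower, against 8 and 6 without it. Genes called higher in SCNT numbered 5 without a filter on low values and 3 with short RNA genes left out, and genes called lower numbered 12 with the robust prior. Leaving out 1 library gave 13 to 31 genes higher and 11 to 30 lower; the highest counts came without SCNT replicate 1 and without IVF replicate 2. The cause was not tested. A filter at 5 FPKM removes Itga5 and Itgav. Unknown depth and 2 libraries per group limit all these values.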
